A study of Mus musculus with 4 samples.

Results

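The 10 genes Gpam, Agpat2, Agpat3, Lpin1, Lpin2, Lpin3, Dgat1, Dgat2, Mogat1 and Mogat2 encode enzymes of triacylglycerol synthesis. They were chosen by symbol, as the gene probes carrying one of these names in the scanner files, which gave 14 probes for 10 genes among 39429 probes for 30439 genes or transcripts. Total RNA from mouse liver was hybridised to 4 one-colour arrays, 1 for each of 4 groups of male C57BL/6J mice that had been on a high-fat diet for 24 weeks. The study compared control mice (Cont) with mice lacking the mitochondrial fission protein Drp1 in the liver (Drp1LiKO), without and with refeeding. The Cont_refed and Drp1LiKO_refed mice had fasted for 17 h and been refed for 4 h. The labels of the remaining Cont and Drp1LiKO arrays name no feeding state. They are called fasted here because the study describes its liver arrays as fasted and refed. The Drp1LiKO mice carried Drp1 flox/flox alleles and Alb-Cre Tg/+, in which the albumin promoter drives Cre in hepatocytes. Whether other liver cells keep Drp1 was not determined here. Controls are wild type in the labels and Drp1 flox/flox littermates without Cre in the study's methods. Both arrays without refeeding were also part of an earlier submission, and the study's methods give different hours of collection for fasted and refed mice, so feeding state and hour of day cannot be told apart. With 1 array per group, no difference below has a replicate check.

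In the liver, most triacylglycerol is built on glycerol 3-phosphate. Glycerol-3-phosphate acyltransferases (GPAT) add the first fatty acid, lysophosphatidic acid acyltransferases (AGPAT) add the next, lipins remove the phosphate to give diacylglycerol, and diacylglycerol acyltransferases (DGAT) add the last fatty acid. Monoacylglycerol acyltransferases (MOGAT) reach diacylglycerol by another route, which dominates in the intestine, where Mogat2 is the main form. Lipin 1 also has a nuclear role as a partner of the coactivator PGC-1α and the receptor PPARα.

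The letters that each array read decide what a value below stands for. The 3′-terminal 30 bases of the 60-base probes are shown for the genes whose levels differed most between arrays and for Gpam, whose probes disagreed. Coordinates are those of the mouse build mm9 in the scanner files, and exon, intron and UTR annotation of that build was not used here. The capitals mark the letters AATAAA, the common polyadenylation hexamer.
Lpin1, higher-signal probe, chr12:16543695-16543754, minus strand: aatgtaatgaaagccactgtcatctgctgt
Lpin1, lower-signal probe, chr12:16542515-16542574, minus strand: tgcattgttataccagtgcccgggagatga
Lpin2, higher-signal probe, chr17:71596935-71596994, plus strand: ggagtgatggtgagaccttggtttgaatca
Lpin2, lower-signal probe, chr17:71581567-71581626, plus strand: atgcatatacctaaaatgaatagaAATAAA
Mogat1, chr1:78534677-78534736, plus strand: agaaagcatcgttgagaaAATAAATAAAta
Mogat2, chr7:106367601-106367660, minus strand: acatgttacctcAATAAAtgaaaggagtct
Gpam, first probe, chr19:55143274-55143333, minus strand: agtttAATAAATAAAaacctaatactaagc
Gpam, second probe, chr19:55144289-55144348, minus strand: tgtccatatatatgattttacggaattatg
AATAAA occurred in the last 30 bases of 10.6% of the 39429 gene probes on the printed strand and of 2.21% on the opposite strand. It was present in the ends of the Mogat1 probe, the Mogat2 probe, the first Gpam probe and the lower-signal Lpin2 probe, and in none of the others shown. The starts of the 2 Lpin2 probes lie 15368 bases apart, and those of the 2 Lpin1 probes 1180 bases apart. Of the probe pairs shown, the lower-signal Lpin2 probe and the first Gpam probe are listed with no RefSeq transcript. Both Lpin1 probes, the higher-signal Lpin2 probe and the second Gpam probe each carry at least 1.

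Every value below is a log2 signal relative to the 75th percentile of its own array, so a difference of 1 is 2-fold. Where several probes carried a gene, the one detected (well above background) on more arrays was used, and the brightest of these where that left a tie. Standard errors come from the scanner's error model and cover the measurement on an array only. The 75th percentile was 461 and 357 intensity units on fasted and refed Cont and 722 and 526 on Drp1LiKO. In the same order, 51.4% and 48.7% of the gene spots were well above background on Cont and 58.2% and 55.4% on Drp1LiKO. None was saturated. Detection thus reached dimmer genes on the Drp1LiKO arrays, and the part of this in signals detected there alone was not tested. One array stood apart. On the fasted Cont array all 4 skeletal muscle markers were well above background, and their summed level was 1.39, against -2.20 on refed Cont, -4.09 on fasted Drp1LiKO and -4.51 on refed Drp1LiKO. Mb was the only 1 of the 4 also well above background on refed Cont, and none was on either Drp1LiKO array. Results that use the fasted Cont array are therefore read beside those that do not, namely the genotype difference after refeeding and the refeeding difference in Drp1LiKO. Hepatocyte markers were high on all arrays, with 5 of 5 named markers well above background. Their summed levels were 11.34 and 11.61 on fasted and refed Cont and 10.78 and 11.07 on Drp1LiKO, and their median genotype differences were -0.58 and -0.55, whose part in the lower readings below was not tested. The probe for Dnm1l, which encodes Drp1, differed by -0.21 ± 0.20 (SE) in fasted and -0.12 ± 0.20 in refed livers, and where it lies relative to the deleted exons was not determined, so it does not check the labels.

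**Figure D1:**
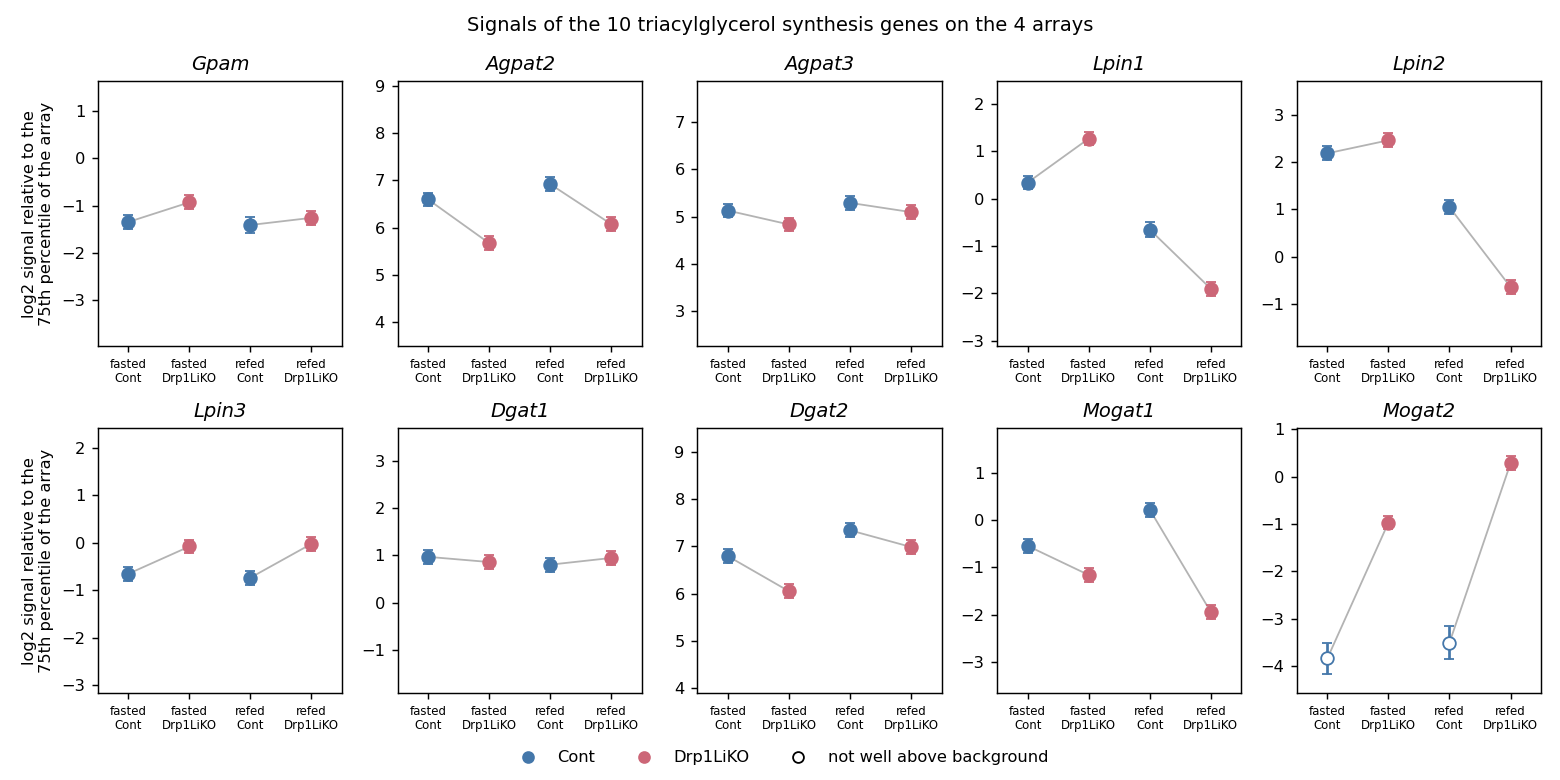
Log2 signal relative to the array's 75th percentile (y axis) of the 10 genes on the 4 arrays (x axis), with 1 point per array, error bars of 1 SE of the scanner's error model and open circles for signals not well above background. The y axes span equal ranges but different levels. Lpin1 and Lpin2 are lowest on refed Drp1LiKO, and Mogat2 is well above background on the Drp1LiKO arrays only.

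Lpin1, Lpin2, Mogat1 and Mogat2 were the members at least 2-fold apart in 1 or more of the 4 comparisons. Without refeeding, 1 of the 10 genes, Mogat2, was at least 2-fold higher in Drp1LiKO than in Cont and 0 were at least 2-fold lower. Over all genes usable in that comparison, 8.06% were 2-fold or more higher and 5.19% were 2-fold or more lower. After refeeding, Mogat2 was again higher (all genes, 8.05%), and 3 of the 10, Lpin1, Lpin2 and Mogat1, were at least 2-fold lower (all genes, 6.33%). The median over the 10 genes was 0.08 without refeeding and -0.27 after it, against -0.08 and -0.04 over all genes. In Cont, 1 gene, Lpin2, was at least 2-fold lower in refed than in fasted liver (all genes, 5.83%) and 0 were 2-fold higher (all genes, 4.47%), and Mogat2 had no value because it was not well above background on either array. In Drp1LiKO, Lpin1 and Lpin2 were at least 2-fold lower (all genes, 7.15%) and Mogat2 was at least 2-fold higher (all genes, 5.61%).

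**Figure D2:**
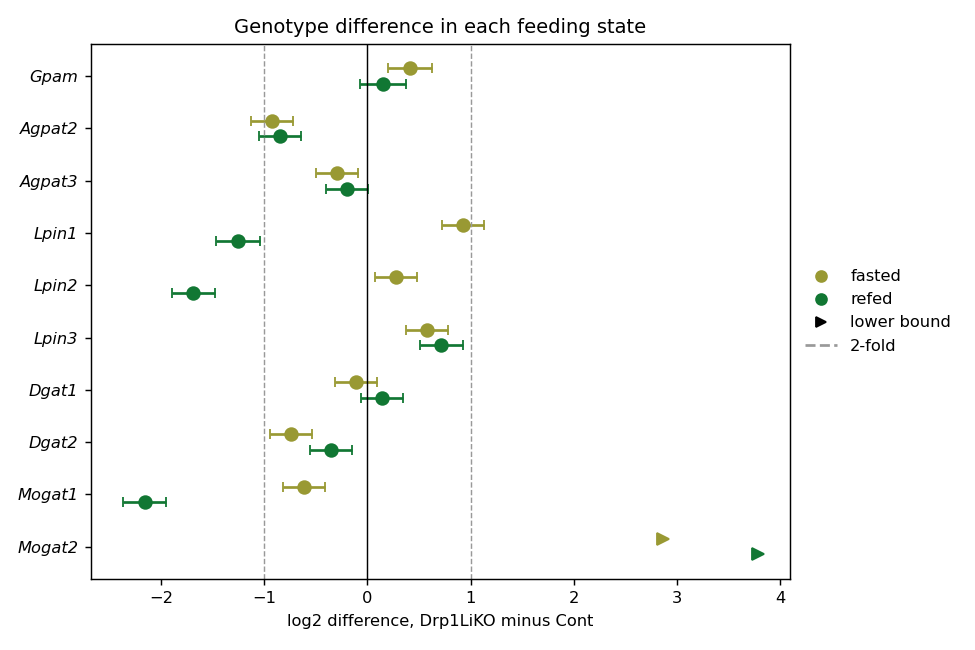
Log2 difference, Drp1LiKO minus Cont (x axis), of each gene (y axis) in fasted and refed livers. Error bars are 1 SE of the scanner's error model, and dashed lines lie at 2-fold. Triangles, labelled lower bound in the figure, are differences from a Cont signal not well above background and are not minimums. Lpin1 lies at 0.93 in fasted and -1.25 in refed livers. Mogat2 is marked at 2.87 and 3.79, set against dim Cont signals, and was smaller under normexp background correction.

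GPAT1, the product of Gpam, is the GPAT of the mitochondrial outer membrane, and other GPAT genes (Gpat3 and Gpat4) are read below. On its first probe Gpam read -1.35 on fasted Cont, -0.93 on fasted Drp1LiKO, -1.41 on refed Cont and -1.26 on refed Drp1LiKO. All 4 readings lay within 0.48 of each other. The genotype difference was 0.41 ± 0.21 (SE) without refeeding and 0.15 ± 0.22 after it. The second probe gave a different picture, reading -0.92 on fasted Cont, -2.37 on fasted Drp1LiKO, -2.32 on refed Cont and -2.31 on refed Drp1LiKO. On that probe fasted Cont alone was high, by 1.45 over fasted Drp1LiKO, and the refed arrays differed by 0.01 ± 0.25. The fasted Cont array is also the one with the skeletal muscle signal, whose part in the reading of the second probe was not tested.

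Agpat2 encodes the main hepatic and adipose AGPAT, whose loss causes lipodystrophy. It read 6.59 on fasted Cont, 5.67 on fasted Drp1LiKO, 6.92 on refed Cont and 6.07 on refed Drp1LiKO. Both Drp1LiKO arrays were below both Cont arrays. The genotype difference was -0.92 ± 0.20 (SE) without refeeding and -0.85 ± 0.20 after it, short of 2-fold in each. Under quantile normalization these became -0.62 and -0.71. The hepatocyte markers were also lower in Drp1LiKO, by the medians given above. The other Agpat2 probe, at chr2:26449107-26449166, gave -0.72 and -0.87. That other probe is listed with 1 RefSeq transcript, whereas the chosen Agpat2 probe is listed with none. The refeeding difference of Agpat2 was 0.32 in Cont and 0.40 in Drp1LiKO, and it became 0.02 and -0.07 under quantile normalization, so its sign was not stable. Agpat3, which acts on the same substrate, read between 4.83 and 5.29 on the 4 arrays, with genotype differences of -0.29 and -0.20. Its fasted genotype difference was 0.01 under quantile normalization, and its refeeding differences of 0.16 and 0.26 turned to -0.09 and -0.12.

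Lpin1 encodes lipin 1, a phosphatidic acid phosphatase known to be induced in fasted liver and abundant in skeletal muscle. It read 0.34 on fasted Cont, 1.27 on fasted Drp1LiKO, -0.65 on refed Cont and -1.90 on refed Drp1LiKO. The fasted Drp1LiKO array was the highest and the refed Drp1LiKO array the lowest, and both fasted arrays lay above both refed arrays. The refeeding difference was -3.17 ± 0.21 (SE) in Drp1LiKO, a 9.0-fold lower level, and -0.99 ± 0.21 in Cont, a 1.99-fold lower level. The genotype difference went from 0.93 ± 0.20 without refeeding to -1.25 ± 0.21 after it. The lower-signal Lpin1 probe did not share this pattern. It read -1.96 on fasted Cont and -3.49 on fasted Drp1LiKO, a genotype difference of -1.52 ± 0.25, opposite in sign to that of the higher-signal probe. On both refed arrays it was not well above background, so its refeeding differences are bounds, at least 3.0-fold lower in Cont and at least 2.08-fold lower in Drp1LiKO. Both probes thus read less Lpin1 in refed liver of either genotype, while the fasted genotype difference depended on the probe. The skeletal muscle markers were high on the fasted Cont array that this difference uses, and their part in it was not tested.

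Lpin2 encodes lipin 2, a major lipin of the liver. It read 2.18 on fasted Cont, 2.46 on fasted Drp1LiKO, 1.05 on refed Cont and -0.64 on refed Drp1LiKO. As with Lpin1, both refed arrays lay below both fasted arrays and refed Drp1LiKO was the lowest. The refeeding difference was -1.14 ± 0.20 (SE) in Cont and -3.10 ± 0.21 in Drp1LiKO, an 8.56-fold lower level. The genotype difference was 0.27 ± 0.20 without refeeding and -1.69 ± 0.21, or 3.22-fold lower, after it. The lower-signal probe read -1.96, -2.02, -3.51 and -4.08 in the same order of arrays. It gave refeeding differences of -1.54 ± 0.36 in Cont and -2.05 ± 0.30 in Drp1LiKO, and a genotype difference of -0.57 ± 0.41 after refeeding, so the lower refed level was read by both probes and the size of the genotype difference was not. Lpin3, which encodes the third lipin, ran differently. It read -0.65 on fasted Cont, -0.08 on fasted Drp1LiKO, -0.74 on refed Cont and -0.02 on refed Drp1LiKO, higher in Drp1LiKO by 0.58 ± 0.21 and 0.71 ± 0.21 and nearly level across feeding.

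**Figure D3:**
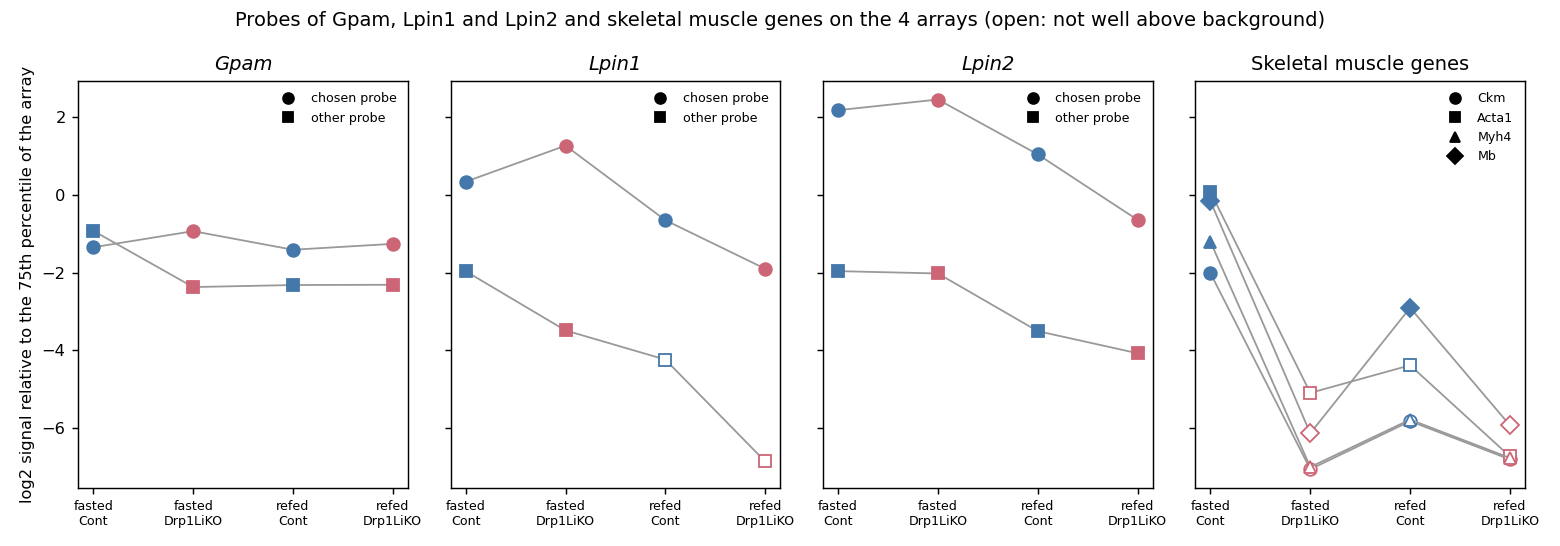
Log2 signal relative to the array's 75th percentile (y axis) of both probes of Gpam, Lpin1 and Lpin2 and of the 4 skeletal muscle markers on the 4 arrays (x axis), blue for Cont and red for Drp1LiKO, with open symbols not well above background. The chosen and other Lpin1 probes differ in sign between fasted Cont and fasted Drp1LiKO, at 0.93 and -1.52, and the muscle markers are highest on fasted Cont.

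Dgat1 and Dgat2 encode unrelated enzymes for the last acylation. Dgat1 had the narrowest range of the 10 genes, reading 0.97 on fasted Cont, 0.86 on fasted Drp1LiKO, 0.80 on refed Cont and 0.95 on refed Drp1LiKO. Its 4 differences lay between -0.17 and 0.14, each smaller than its SE. Its 60-base probe spans 147 bases of the genome, so it crosses a gap between aligned blocks. Dgat2, the form tied to newly made fatty acids, read 6.79 on fasted Cont, 6.05 on fasted Drp1LiKO, 7.34 on refed Cont and 6.99 on refed Drp1LiKO. It was lower in Drp1LiKO by 0.74 ± 0.20 (SE) in fasted and by 0.35 ± 0.20 in refed livers on the log2 scale. It was higher in refed liver by 0.55 ± 0.20 in Cont and 0.93 ± 0.20 in Drp1LiKO, which was 1.91-fold. Under quantile normalization these became 0.22 and 0.44, and the fasted genotype difference became -0.42, while median scaling put the refeeding difference in Drp1LiKO at 1.03, past 2-fold.

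Mogat1 encodes a monoacylglycerol acyltransferase that is present in liver and is known to increase in fatty liver. It read -0.54 on fasted Cont, -1.16 on fasted Drp1LiKO, 0.22 on refed Cont and -1.94 on refed Drp1LiKO. Refed Cont was the highest and refed Drp1LiKO the lowest. The genotype difference was -0.61 ± 0.21 (SE) without refeeding and -2.16 ± 0.21, or 4.47-fold lower, after it. Refeeding differences had opposite signs, 0.77 ± 0.21 in Cont and -0.78 ± 0.21 in Drp1LiKO.

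Mogat2 went the other way from Mogat1. It read -3.83 on fasted Cont and -3.51 on refed Cont, neither well above background, and -0.97 on fasted Drp1LiKO and 0.28 on refed Drp1LiKO, both well above it. With the scanner's own background subtraction, Drp1LiKO read 7.29-fold higher in fasted and 13.8-fold higher in refed liver. These are log2 differences of 2.87 ± 0.36 and 3.79 ± 0.37. With normexp background correction they were 1.58 and 2.36, so the values depend on the background correction and are not minimums. Each sets the bright array against the dim signal itself or the detection floor of the dim array, whichever was higher. Here the dim Cont signal itself was the higher in both states. The refeeding difference in Drp1LiKO was 1.25 ± 0.21 (SE), or 2.38-fold higher. Of the enterocyte markers, 5 of 6 (Vil1, Sis, Lct, Alpi and Cdx2) were not well above background on any array. Fabp2 alone was, and its level varied between 6.03 and 6.59. Of the 5 cholangiocyte markers, Sox9 and Spp1 were at least 2-fold higher in Drp1LiKO in fasted liver (all genes, 8.06%) and Sox9 in refed liver (all genes, 8.05%). Krt19 differed by 0.22 and 0.68, and Epcam was not detected. Krt7 was well above background on the Drp1LiKO arrays alone, but its signal differed by 0.30 ± 0.69 in fasted and 0.04 ± 0.40 in refed liver. The summed levels of the 5 cholangiocyte markers were -1.02 and -0.83 on the fasted and refed Cont arrays and 0.11 and 0.02 on the Drp1LiKO arrays. Macrophage markers, 5 of 5 well above background, summed to 5.81 and 5.91 on Cont and to 6.01 and 6.62 on Drp1LiKO. Lyz2 alone of these was at least 2-fold higher in Drp1LiKO, at 1.38 and 1.53 (all genes, 8.06% and 8.05%), and Clec4f differed by -0.16 and 0.34. Of 5 stellate and fibroblast markers, Col1a1 and Col3a1 were at least 2-fold higher in fasted Drp1LiKO, at 1.67 and 1.28 (all genes, 8.06%). In refed liver those 2 differed by -0.02 and -0.44. In fasted and refed liver Dcn differed by 0.50 and 0.20, Lrat by 0.84 and 0.60 and Des by -0.08 and 0.02. The 5 summed to 5.51 and 5.69 on Cont and to 6.04 and 5.88 on Drp1LiKO. The 4 endothelial markers summed to 4.51 and 4.74 on Cont and to 4.06 and 4.04 on Drp1LiKO. The part of these cell types in the Mogat2 reading was not tested, and in whole liver more cells of a type and more RNA per cell cannot be told apart. Of the adipocyte markers, 2 of 6 (Fabp4 and Cfd) were well above background, whereas Adipoq, Lep, Retn and Plin1 were not on any array. The list summed to 2.76 and 4.62 on fasted and refed Cont and to 1.40 and 1.89 on Drp1LiKO. Cfd was lower in Drp1LiKO, at -5.07 and -6.27, and Fabp4 differed by 0.01 and 0.31.

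**Figure D4:**
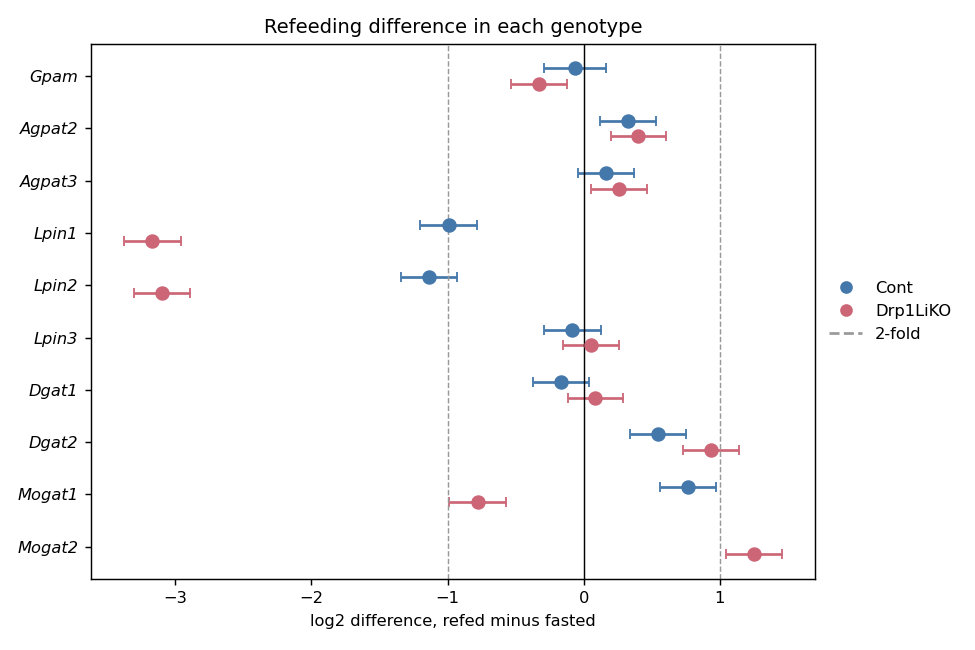
Log2 difference, refed minus fasted (x axis), of each gene (y axis) in Cont and Drp1LiKO livers, with error bars of 1 SE of the scanner's error model and dashed lines at 2-fold. Lpin1 and Lpin2 lie at -3.17 and -3.10 in Drp1LiKO and at -0.99 and -1.14 in Cont, and Mogat2 has a value in Drp1LiKO only.

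A limma fit adding a genotype term to a feeding term was used as the test across the 4 arrays, and it has 1 residual degree of freedom. It covered 16744 genes detected on 2 or more arrays, with the 10 genes among them. None of the 10, and 0 of all genes, had an adjusted p under 0.05 for either factor. At an unadjusted p under 0.05 the genotype term held Agpat2, Lpin3, Dgat2 and Mogat1 among the 9 members other than Mogat2, against 28.3% of all genes. The feeding term held 3 (Lpin1, Lpin2 and Dgat2) against 26.4% of all genes. Mogat2 is left out of that genotype count because it entered the fit through the Drp1LiKO arrays alone, where it was high. Its coefficient rests on Cont signals that were not above background and is not given. Among the other 9, the lowest adjusted p for genotype was that of Agpat2, with a coefficient of -0.88 ± 0.14 (SE) and an adjusted p of 0.104. For feeding, Lpin2 had -2.12 ± 0.55 and Dgat2 0.74 ± 0.17, both with an adjusted p of 0.169, and Lpin1 had -2.08 ± 0.60 with 0.174. When the fit kept the 14447 genes detected on every array, 9 of the 10 among them, it called Agpat2 for genotype with an adjusted p of 0.0392, where 8.4% of all genes were called. For feeding it called none of the 9, where 0.104% of all genes were called. An additive fit has no term for a genotype difference that changes with feeding, as those of Lpin1, Lpin2 and Mogat1 did on their chosen probes. On the lower-signal probes that change was -1.10 ± 1.54 for Lpin1, dim on both refed arrays, and -0.51 ± 0.47 for Lpin2. On the second Gpam probe it was 1.45 ± 0.33, against -0.26 ± 0.31 on the first. Without the fasted Cont array the additive fit has no residual degree of freedom.

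Lpin1 and Lpin2 were both lowest on refed Drp1LiKO, so the 250 bases before the RefSeq transcription starts listed for them are shown, from the RefSeq promoter table of build GRCm38.p6, 5′ to 3′ on the gene's strand. Capitals mark matches to 7 motifs searched on both strands. These were CACGTG (an E-box, in 6.02% of all 32851 promoters), GTAAACA (FoxO, 3.17%), TGACGTCA (the cyclic AMP response element, 1.55%), TGATGNAA (the C/EBP-ATF response element, 3.45%), TCACNCCAC (a sterol response element, 1.05%), the direct repeat bound by PPAR (0.0335%) and the glucocorticoid response element (0.387%).
Lpin1, chr12:16610967-16611216, minus strand: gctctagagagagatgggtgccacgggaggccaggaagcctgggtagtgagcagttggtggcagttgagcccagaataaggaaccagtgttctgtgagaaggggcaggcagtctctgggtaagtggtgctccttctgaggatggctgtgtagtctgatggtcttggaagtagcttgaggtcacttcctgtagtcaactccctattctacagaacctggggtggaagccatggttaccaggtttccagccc
Lpin2, most upstream start, chr17:71183282-71183531, plus strand: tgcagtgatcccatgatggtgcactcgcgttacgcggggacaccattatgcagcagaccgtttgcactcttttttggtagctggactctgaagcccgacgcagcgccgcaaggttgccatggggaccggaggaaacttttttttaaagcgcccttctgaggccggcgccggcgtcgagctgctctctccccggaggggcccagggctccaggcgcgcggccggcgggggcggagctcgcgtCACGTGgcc
Lpin2, middle start, chr17:71183728-71183977, plus strand: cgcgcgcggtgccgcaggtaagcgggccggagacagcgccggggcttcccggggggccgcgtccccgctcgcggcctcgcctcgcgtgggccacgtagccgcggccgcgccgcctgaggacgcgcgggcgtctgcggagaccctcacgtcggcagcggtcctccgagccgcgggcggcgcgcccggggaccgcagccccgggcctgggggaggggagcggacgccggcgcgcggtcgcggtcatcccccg
Lpin2, most downstream start, chr17:71204404-71204653, plus strand: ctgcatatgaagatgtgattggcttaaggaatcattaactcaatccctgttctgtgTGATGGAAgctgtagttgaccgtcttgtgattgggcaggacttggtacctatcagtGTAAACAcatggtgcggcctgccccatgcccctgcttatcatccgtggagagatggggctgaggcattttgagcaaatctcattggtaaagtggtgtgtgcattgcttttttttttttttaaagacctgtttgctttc
The Lpin1 window and the middle Lpin2 window held no match to these motifs. CACGTG began 9 bases before the most upstream Lpin2 start. GTAAACA began 138 bases and TGATGGAA 194 bases before the most downstream start. Among the 11 promoter windows listed for 7 of the 10 genes, the 1 further match was TGATGAAA, beginning 22 bases before a Gpam start. A match is only a stretch of letters, and no binding was measured here.

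Other genes of the pathway were read from 7 lists of 50 genes, of which 46 were usable in either genotype comparison. Without refeeding 2 of them were 2-fold or more higher in Drp1LiKO (all genes, 8.06%) and 3 were lower by as much (all genes, 5.19%). In refed liver 1 was higher (all genes, 8.05%) and 6 were lower (all genes, 6.33%). Values for fasted liver, and for refeeding in Cont, use the array with the muscle signal, whose part in them was not tested. The medians of -0.31 and -0.34 stood beside -0.08 and -0.04 over all genes. Between refed and fasted liver, 1 gene was 2-fold higher and 1 lower in Cont (all genes, 4.47% and 5.83%), and 2 were higher and 2 lower in Drp1LiKO (all genes, 5.61% and 7.15%). No member of these lists had an adjusted p under 0.05 in the additive limma fit.

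Among the other acyltransferases, the only 1 of 8 at least 2-fold apart was Gpat3, a GPAT of the endoplasmic reticulum. It was higher in Drp1LiKO by 1.5 ± 0.20 (SE) in fasted liver (all genes, 8.06%) and by 0.73 ± 0.20 in refed liver. On refeeding in Drp1LiKO it was lower, at -1.01 ± 0.20 (all genes, 7.15%). Gpat4 went the other way between genotypes and lay just short of 2-fold, at -0.83 ± 0.20 in fasted and -0.9996 ± 0.20 in refed liver. The acyl-CoA synthetases, which activate fatty acids for these reactions, differed among themselves. Acsl4 was higher in Drp1LiKO by 1.68 ± 0.20 and 1.57 ± 0.20, whereas Acsl1 differed by -0.62 ± 0.20 in fasted and -1.59 ± 0.20 in refed liver. None of the usable genes of glycerol 3-phosphate supply (at most 5 of 6) and none of those (7 of 8) that carry diacylglycerol or phosphatidic acid to phospholipids was 2-fold apart in any of the 4 comparisons. Over all genes the share called was 4.47% to 8.06% per comparison and direction, so lists this short could hold none.

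Of the lipin partners, Ppara, the receptor for fatty acids that drives fasting genes, read 5.28 on fasted Cont, 4.22 on fasted Drp1LiKO, 5.10 on refed Cont and 3.71 on refed Drp1LiKO. It was lower in Drp1LiKO by 1.06 ± 0.20 (SE) in fasted and 1.39 ± 0.20 in refed liver on the log2 scale. Ppargc1a, which encodes PGC-1α, was lower on refeeding in Cont, at -1.02 ± 0.22, and read -0.85 ± 0.21 in Drp1LiKO. The lipin-activating phosphatase genes Ctdnep1 and Cnep1r1 were not 2-fold apart in any comparison (all genes, 4.47% to 8.06% per comparison and direction).

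The list of genes that store, hydrolyse or export triacylglycerol had 4 members at least 2-fold lower in Drp1LiKO after refeeding, out of 10 usable (all genes, 6.33%), and 0 higher (all genes, 8.05%). These were Fitm1 and Fitm2, which partition triacylglycerol into lipid droplets, at -2.39 and -1.32, Mgll, the monoacylglycerol lipase that removes the MOGAT substrate, at -1.34, and Ces1d, a carboxylesterase, at -1.10. Without refeeding only Fitm1 was past 2-fold (all genes, 5.19% lower), at -2.36 ± 0.20 (SE), with -0.77 for Fitm2, -0.72 for Mgll and -0.46 for Ces1d. Fitm1, which is also a skeletal muscle gene, read 2.74 on fasted Cont, 0.38 on fasted Drp1LiKO, 3.57 on refed Cont and 1.18 on refed Drp1LiKO.

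Of 8 transcription factors and their regulators, Srebf1, which drives lipid synthesis genes and is induced by insulin, was higher on refeeding by 1.29 ± 0.21 (SE) in Cont (all genes, 4.47%) and 2.55 ± 0.22 in Drp1LiKO (all genes, 5.61%). Its genotype difference was -1.65 ± 0.23 in fasted (all genes, 5.19%) and -0.39 ± 0.21 in refed liver. Insig1 and Insig2 encode proteins that retain SREBPs in the endoplasmic reticulum. Insig1 was higher on refeeding in Drp1LiKO by 1.37 ± 0.21 (all genes, 5.61%) with -0.18 in Cont. Insig2, the liver form that insulin lowers, read -1.37 ± 0.20 in Drp1LiKO (all genes, 7.15%) and -0.68 ± 0.20 in Cont.

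Lpin1, Lpin2 and Mogat1 had the widest range among the members detected on every array. For these 3, the genes with the most similar pattern were sought among 14446 genes by Euclidean distance between log2 signals over the 4 arrays, after taking off each gene's mean. For Lpin1 these were Spon2 at 0.38, Rad51b at 0.48 and Rnf125 at 0.49. For Lpin2 they were Ppm1k, a phosphatase of branched-chain amino acid breakdown, at 0.28, Rad51b at 0.29 and Tatdn2 at 0.44. For Mogat1 they were Scd1, the stearoyl-CoA desaturase of fatty acid synthesis, at 0.14, Tnfaip8l1 at 0.18 and Gm10762 at 0.27. Scd1 read 4.68 on fasted Cont, 3.97 on fasted Drp1LiKO, 5.27 on refed Cont and 3.14 on refed Drp1LiKO. With 4 arrays many genes can lie this close, and the distances are a description.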

How the data were processed

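Liver RNA of 4 groups was measured on Agilent 4x44K v2 one-colour arrays, 1 array per group, all on 1 slide with 1 scan. The scanner files deposited by the authors hold spot intensity after background subtraction by Agilent Feature Extraction. The submitters' processing notes name version 9.5.1.1 and the file headers another. The authors also deposited a table of normalized intensity for all 39429 probes. Its columns share a median of 39.6, its normalization is not given in the sources used here, and it served as an alternative. Member differences from it nearly equalled those under quantile normalization, so these settings are not separate checks. Agpat2, for example, gave -0.6161 and -0.6166 for genotype in fasted liver.

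From the processed intensity, log2 values were taken relative to the 75th percentile of each array. Outlier spots were left out, which removed 37 probes, and repeated spots were averaged. Symbols were updated through RefSeq accessions, of which 26761 of 28389 matched. A difference was called at 2-fold where the brighter side was well above background. A dim array gave a bound under the scanner's background subtraction, set at the dim signal or the detection floor, whichever was higher. The precision is limited by the number of arrays, and the median SE over genes was 0.205 from measurement error alone. The additive model used limma 3.58.1 in R 4.3.3 with Benjamini-Hochberg adjustment over all genes detected on 2 or more arrays, and the code was tested on simulated data. The members, lists and tests were chosen with earlier results of these data known. All members and all their probes are named. Pathway genes are named where at least 2-fold apart in 1 or more comparisons with both sides measured, or past the limma threshold. Gpat4, just short of 2-fold, is named as well. The remaining list members are counted.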

Additional observations from a re-analysis of the deposited data

Results flagged for a closer look

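The genotype difference of Lpin1 changed sign with feeding, from 0.93 in fasted to -1.25 in refed liver, a change of -2.18 ± 0.30 on the log2 scale, where the SE covers measurement on the arrays only. With 1 array per group the change itself was not tested. It was read by the higher-signal probe, and the lower-signal probe gave -1.52 in fasted liver and was not well above background on either refed array. The fasted Cont array, which carried skeletal muscle signal, enters the fasted difference, and its part was not tested.

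The refeeding difference of Mogat1 was 0.77 in Cont and -0.78 in Drp1LiKO, a change of -1.55 ± 0.30 on the log2 scale, and this change was not tested either. One probe reads Mogat1, and it was well above background on all 4 arrays.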

How the results depend on the processing

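Of 195 recomputed single-gene differences, 164 moved by less than their SE, 31 moved by more and 0 of those called changed sign, and of the recomputed counts and medians 92 stayed close and 28 moved. Quantile normalization and the authors' values, which nearly coincide, are both counted in these. Under the 1.5-fold threshold the members called were 5 and 6 for genotype (fasted, refed) and 3 and 5 for refeeding (Cont, Drp1LiKO), and all genes called were 5085, 5256, 3576 and 5942. With only genes well above background on all 4 arrays these were 875, 1028, 573 and 848, and 0 members were called for genotype in fasted liver, since Mogat2 was not tested. Normexp background correction, which draws dim signals together, gave 927 (358 higher, 569 lower), 1072 (363 and 709), 726 (439 and 287) and 888 (501 and 387), so the share of higher calls moved. It put Mogat2 at 1.58 and 2.36 and refed Lpin1 at -0.96. With no filter on dim probes, all genes called were 5057 for genotype in refed liver, 3175 for refeeding in Cont and 3810 in Drp1LiKO. With the dim side set at its bound, genes called higher in Drp1LiKO were 779 in fasted and 703 in refed liver, against 1454 and 1404 as reported. Those called lower were 909 and 1105, against 936 and 1105. The members called for refeeding in Cont were 2 with median scaling and 2 with the median over probes, where Lpin1 passed. All genes called there were 1697 and 1715 of 16437 usable. The median over probes also put the members' median for genotype in fasted liver at -0.30, Gpam at -0.52 and Lpin1 at -0.30, for which the cause is the second probe. The additive limma model called, for genotype, 1 gene without the feeding term, 474 with an intensity trend (Agpat2 and Mogat2 among them), 1214 of genes on all 4 arrays (Agpat2), 319 with median scaling (Mogat2) and 498 with normexp (Agpat2 and Mogat2), against 0 as reported. The Mogat2 calls rest on Cont signals not above background. For feeding it called 15 of genes on all 4 arrays, with no member. No paired analysis was possible because each group has 1 array and the labels carry no replicate numbers, and no array could be left out for the same reason. A probe that was not well above background gives only a bound, which depends on the background correction.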
